A study of Mus musculus with 13 samples.

Results

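Collagen genes were followed in mesenchymal stromal cells (MSCs), the connective-tissue cells that line marrow and bone and give rise to bone, cartilage and fat cells. Members were the genes named Col, a number, a and a number whose level reached at least 1 FPKM in at least 3 of the 13 libraries. FPKM is the number of sequenced fragments scaled for transcript length and sequencing depth. The rule kept 29 of the 44 collagen symbols among 33433 gene entries. By structure, 11 members were fibrillar chains, 4 belonged to basement membranes, 8 were fibril-associated, 3 formed beaded filaments, 2 formed short-chain networks and 1 was a transmembrane chain. Cartilage chains, a grouping by tissue that cuts across these classes, numbered 6: Col2a1, Col9a1, Col9a2, Col9a3, Col11a1 and Col11a2.

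The libraries came from C57BL/6 mice, as polyadenylated RNA of cells sorted from marrow and compact bone. Recovered MSCs (4 libraries) were from pre-leukemic mice that had been given MSCs. Pre-leukemic MSCs (6 libraries) were from pre-leukemic mice without that treatment, and healthy MSCs (3 libraries) were from control mice in homeostasis. The labels give neither the genetic model behind the pre-leukemia, nor the surface markers of the sort, the origin of the infused MSCs or the ages of the mice.

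Collagens are made of 3 chains wound into a triple helix, built on a repeat of glycine and a pair of other residues. Fibrillar collagens pack into the fibrils of bone, skin and tendon, or of cartilage, fibril-associated chains decorate those fibrils, type IV chains form the meshwork of basement membranes, and type VI chains form beaded filaments around cells. Bone-forming cells are known for type I collagen and cartilage cells for type II, and marrow stroma also makes type III, IV and VI chains.

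Some properties of the libraries touch all results. Immunoglobulin genes held at most 0.134% of the summed FPKM of recovered libraries, between 54.9% and 80.5% in pre-leukemic libraries and at most 0.0301% in healthy libraries. The 16 pan-leukocyte markers summed to between 84.1 and 375 FPKM in recovered, 3391 and 4786 FPKM in pre-leukemic and 149.5 and 188 FPKM in healthy libraries. The 10 marrow stromal markers ran the other way, with sums of 718 to 1098 FPKM in recovered, 44.8 to 158 FPKM in pre-leukemic and 692 to 902 FPKM in healthy libraries. Cxcl12 alone held 497 to 910.1, 6.75 to 124 and 369 to 508 FPKM in that order. In pre-leukemic against healthy samples 7 of the 10 were lower and 3 passed in neither direction (limma), beside 13.1% lower over all genes. In recovered against healthy samples 0 passed, and Foxc1, Nt5e and Pdgfrb were lower at an unadjusted p under 0.05. All 6 libraries labelled pre-leukemic MSC thus carried leukocyte and plasma cell transcripts above stromal ones, and no pre-leukemic library without them exists to repeat a result. The comparison of recovered with healthy libraries does not use the pre-leukemic levels directly. They enter it through the shared estimate of the spread, the choice of genes tested and, where used, quantile normalization. They may also enter through the library scaling of the deposited values, whose method is not stated. In such bulk libraries, fewer stromal cells and less collagen RNA in each stromal cell cannot be told apart. Steps between low values put 1 fragment on a transcript of 1 kb at about 0.349 to 0.642 FPKM in recovered, 0.165 to 0.242 FPKM in pre-leukemic and 0.314 to 0.384 FPKM in healthy libraries. By this estimate a given level rests on more fragments in pre-leukemic libraries. The steps were least clear there, with 29.6 to 41.8% of low values near a whole number of 1 to 4 fragments. That share was 46.6 to 66.6% in recovered and 50.6 to 57.3% in healthy libraries. Fragment numbers of pre-leukemic libraries are thus the least certain. Healthy libraries 1 and 3 differed by little more than sampling noise (chi-square per degree of freedom 1.22, against at least 9.77 for the other 23 pairs within groups), and their mean was counted as 1 sample. Tests therefore compared 4 recovered, 6 pre-leukemic and 2 healthy samples. Since the labels do not say that the samples were separate mice, the spread behind the p-values may be technical only.

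The stretch just before the annotated start is shown for a chain of type I, III, VI, VIII and XI collagen, as examples of the fibrillar, beaded-filament, short-chain and cartilage members, so that the letters near their starts can be compared. Sequences are from RefSeq (GRCm38.p6), run 5′ to 3′ toward the start and end on the base before it. Capitals mark the CCAAT box on either strand (ATTGG where it lies on the other one), the letters TATAA on the gene's own strand only, and the GC box GGGCGG on either strand (written as CCGCCC where it lies on the other one).
Col1a2, chr6:4505498-4505617, plus strand: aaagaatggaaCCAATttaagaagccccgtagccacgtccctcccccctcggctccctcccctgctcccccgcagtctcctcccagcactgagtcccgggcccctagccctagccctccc
Col3a1, chr1:45311418-45311537, plus strand: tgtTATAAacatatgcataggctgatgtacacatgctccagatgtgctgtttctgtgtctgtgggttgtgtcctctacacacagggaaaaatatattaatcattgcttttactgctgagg
Col6a1, chr10:76726045-76726164, minus strand: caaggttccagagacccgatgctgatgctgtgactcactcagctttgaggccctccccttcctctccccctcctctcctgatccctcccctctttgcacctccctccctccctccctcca
Col8a2, chr4:126286674-126286793, plus strand: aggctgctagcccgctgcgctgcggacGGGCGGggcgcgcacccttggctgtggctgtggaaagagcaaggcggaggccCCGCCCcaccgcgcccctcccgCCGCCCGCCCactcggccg
Col11a1, chr3:114030420-114030539, plus strand: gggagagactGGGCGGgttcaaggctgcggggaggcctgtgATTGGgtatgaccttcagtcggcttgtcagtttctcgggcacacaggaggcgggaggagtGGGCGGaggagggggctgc

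These windows looked unlike each other. In Col1a2 the CCAAT began 109 bases before the start and in Col11a1 the reverse form began 79 bases before it, whereas the Col6a1 window held none of the searched letters. Over the 250 bases before the start, 22 members had 25 RefSeq windows, of which 32.0% held CCAAT on either strand, against 33.8% of all 32851 windows. TATAA stood in 16% of the members' windows and likewise in 16% of all windows, and GGGCGG on either strand in 56.0% and 32.7%. A match in such a window is a description and says nothing of what binds there. Some members are neighbours: Col3a1 and Col5a2 lie 24.6 kb apart on chromosome 1, Col6a2 and Col6a1 lie 85.2 kb apart on chromosome 10, and Col4a1 and Col4a2 are transcribed away from each other on chromosome 8 with annotated starts that overlap by 22 bases.

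The type I chains, the main collagen of bone, are given first among the fibrillar class. Col1a1 (chr11:94936224-94953042, plus strand) stood at 489, 512, 663 and 784 FPKM in recovered libraries, at 3.23 to 10.4 FPKM with a median of 8.94 in pre-leukemic libraries, and at 995, 1070.0 and 1029 FPKM in healthy libraries. The 3 groups did not overlap, with pre-leukemic libraries lowest and healthy libraries highest. On the log2(FPKM + 1) scale used for all changes here, pre-leukemic minus healthy was -6.99 ± 0.42 (SE; limma, adjusted p = 8.38e-08) and recovered minus pre-leukemic was 6.20 ± 0.33 (adjusted p = 8.26e-09). Recovered minus healthy was -0.79 ± 0.44, which did not pass the test (adjusted p = 0.407). By the step estimate, the pre-leukemic values rest on about 94 to 367 fragments per library. Col1a2, the partner chain, stood at 497, 458, 404 and 556 FPKM in recovered libraries, at 7.81 to 27.6 FPKM with a median of 19.7 in pre-leukemic libraries, and at 1388, 1672 and 1383 FPKM in healthy libraries. All 4 recovered libraries were thus under all 3 healthy libraries for Col1a2, and recovered minus healthy was -1.68 ± 0.43 with an adjusted p of 0.0584. That p fell under 0.05 in 6 of the 22 alternatives run, and ranged between 0.0148 and 0.436 over them. The pre-leukemic mean was 0.741% of the healthy mean for Col1a1 and 1.24% for Col1a2, and the recovered mean was 58.8% of the healthy mean for Col1a1 and 31.3% for Col1a2.

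**Figure D1:**
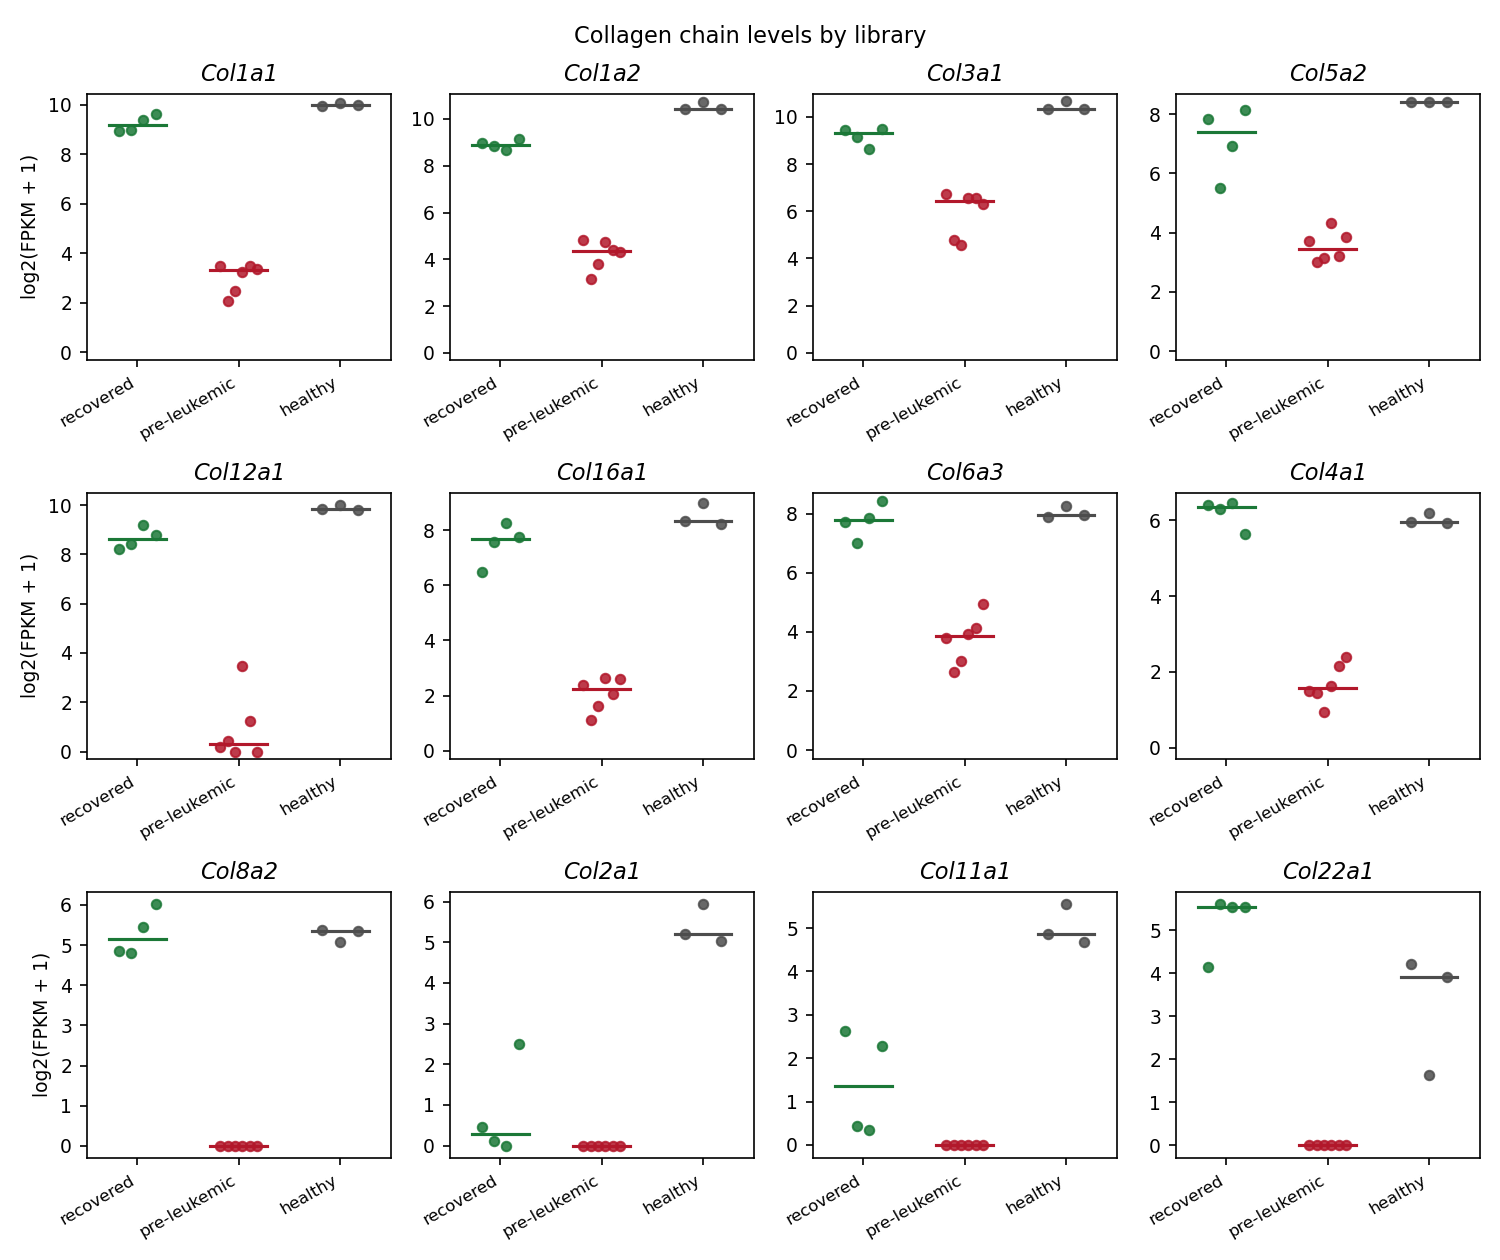
Level of 12 collagen chains in each library as log2(FPKM + 1), each panel with its own scale; points are libraries of the recovered, pre-leukemic and healthy groups and lines are group medians over libraries. Pre-leukemic libraries are the lowest group in every panel, at 0 for Col8a2, Col2a1, Col11a1 and Col22a1, while recovered libraries are near the healthy ones for Col4a1 and Col8a2 and far under them for Col2a1 and Col11a1.

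Type III and type V chains, which form thinner fibrils and regulate fibril width, followed. Col3a1 had 704, 562, 398 and 715 FPKM in recovered libraries, 22.9 to 105 FPKM with a median of 85.6 in pre-leukemic libraries, and 1293, 1643 and 1295 FPKM in healthy libraries. The groups did not overlap. The pre-leukemic mean was 4.76% of the healthy mean, and pre-leukemic minus healthy was -4.59 ± 0.54 (adjusted p = 2.81e-05). Recovered minus pre-leukemic was 3.26 ± 0.43 (adjusted p = 3.52e-05), and recovered minus healthy was -1.33 ± 0.57 (adjusted p = 0.261). Col5a2, the neighbour of Col3a1, had 229, 44.9, 122 and 279 FPKM in recovered libraries, 7.01 to 19.0 FPKM with a median of 10.2 in pre-leukemic libraries, and 339, 344 and 340.1 FPKM in healthy libraries. Its healthy values lie close together and its recovered values are scattered, with recovered library 2 lowest and nearest the pre-leukemic range. Col5a1 had 19.4, 21.2, 28.7 and 23.1 FPKM in recovered libraries, 0.0767 to 3.06 FPKM with a median of 2.55 in pre-leukemic libraries, and 30.5, 39.5 and 29.4 FPKM in healthy libraries. Col5a3, another type V chain, averaged 36.9 ± 3.89 FPKM in recovered (SD, n = 4), 2.11 ± 1.52 FPKM in pre-leukemic (n = 6) and 32.0 ± 4.0 FPKM in healthy samples (n = 2), and recovered and healthy libraries overlapped. All 3 type V chains fell in pre-leukemic against healthy samples (adjusted p at most 0.000332) and rose in recovered against pre-leukemic samples (adjusted p at most 9.34e-05).

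The other fibrillar chains without a cartilage label, Col24a1 and Col27a1, have helices shortened by interruptions in the annotated reading frame: the longest unbroken run of glycine triplets was 216 and 217 triplets, against 337 to 344 in the remaining fibrillar members. Col27a1 averaged 4.56 ± 2.05 FPKM in recovered samples, which is 17.5% of its healthy mean, 0.919 ± 0.844 FPKM in pre-leukemic and 26.1 ± 9.0 FPKM in healthy samples. It rose in recovered against pre-leukemic samples (1.58 ± 0.46, adjusted p = 0.0135). Its recovered minus healthy change of -2.33 ± 0.61 had an adjusted p of 0.0633, which fell under 0.05 in 4 alternatives. Col24a1, a chain found in developing bone, was listed at 0 in all 4 recovered libraries and in 5 of 6 pre-leukemic ones, and stood at 3.25, 10.1 and 2.41 FPKM in healthy libraries. Without healthy library 2, its healthy mean is 2.83 and not 6.44 FPKM. Col24a1 met the rule through the healthy libraries alone, so that its call as lower in recovered than in healthy samples follows from the choice of members.

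Of the 6 cartilage chains, 5 were called lower in recovered than in healthy samples, and in recovered libraries 4 of the 6 (Col9a1, Col9a2, Col9a3 and Col11a2) were at 0 in at least 3 of 4 libraries. All 5 called chains needed healthy libraries to meet the rule, so these calls are partly set by the choice of members. Col2a1, the main fibril chain of cartilage, had 0.381, 0.0859, 0 and 4.63 FPKM in recovered libraries, 0 in all 6 pre-leukemic libraries, and 35.7, 60.8 and 31.7 FPKM in healthy libraries. The recovered mean of 1.27 FPKM is 2.69% of the healthy mean, and it is 0.156 FPKM without recovered library 4. Recovered minus healthy was -4.76 ± 0.62 (adjusted p = 0.00118, and 0.149 in a fit on recovered and healthy samples alone). Recovered minus pre-leukemic did not pass (adjusted p = 0.2). At the depth of the pre-leukemic libraries, 3 fragments on the annotated Col2a1 transcript would read as about 0.0969 to 0.142 FPKM. Col11a1, which joins Col2a1 in cartilage fibrils, had 5.18, 0.354, 0.262 and 3.88 FPKM in recovered libraries, 0 in all 6 pre-leukemic libraries, and 28.2, 46.4 and 24.8 FPKM in healthy libraries. Recovered libraries 1 and 4 were the high ones, and the recovered mean is 1.5 and not 2.42 FPKM without library 1. Recovered minus healthy was -3.75 ± 0.64 (adjusted p = 0.00729, and 0.108 without healthy library 2). The rise of Col11a1 in recovered against pre-leukemic samples had an adjusted p of 0.0289, which ran from 0.00328 to 0.0898 over the alternatives and missed 0.05 in 6 of them, including those without recovered library 1 or 4 and without pre-leukemic library 1 or 2.

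Col11a2, the second type XI chain, had 0.791 FPKM in recovered library 1 and 0 in the other 3 recovered libraries, 0 to 1.92 FPKM with a median of 0.249 in pre-leukemic libraries, and 3.68, 5.49 and 3.11 FPKM in healthy libraries. Its recovered minus healthy change was -2.21 ± 0.49 (adjusted p = 0.0288), which was 0.256 without healthy library 2 and 0.0514 without recovered library 2. Type IX collagen, a fibril-associated collagen that coats type II fibrils, has 3 chains, and each was seldom detected outside healthy libraries except Col9a3. Col9a1 was listed at 0 in all recovered and all pre-leukemic libraries and stood at 1.79, 5.73 and 3.05 FPKM in healthy libraries. It met the rule through the healthy libraries alone, so that its lower level elsewhere follows from the choice of members and its call is no support. Col9a2 was at 3.23 FPKM in recovered library 3 and at 0 in the other recovered and all pre-leukemic libraries, against 4.23, 6.79 and 5.31 FPKM in healthy libraries. Its recovered minus healthy call (adjusted p = 0.0460) was lost in 15 of 21 alternatives. Col9a3 went its own way: it was at 0 in all recovered libraries, at 0.0733 to 5.23 FPKM with a median of 2.61 in pre-leukemic libraries, and at 0.870, 6.07 and 1.33 FPKM in healthy libraries. Pre-leukemic and healthy ranges overlapped for Col9a3 (adjusted p = 0.764), and it was lower in recovered than in pre-leukemic samples (adjusted p = 0.0168), a call that ended with quantile normalization (adjusted p = 0.0527) and on the TPM scale (adjusted p = 0.0719). Col10a1, made by hypertrophic cartilage cells, failed the rule, with 0.200 FPKM in recovered library 3 and 0 in every other library.

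Counted as a group, 0 cartilage chains were higher, 5 lower and 1 (Col9a3) in neither direction in recovered against healthy samples, with a median change of -2.24. Among the other 23 members, 0 were higher, 3 lower (Col13a1, Col20a1 and Col24a1) and 20 passed in neither direction, with a median of -0.45. Over all 13118 genes tested, 0.518% were called higher and 1.99% lower in this comparison, with a median of -0.08. At an unadjusted p under 0.05, 6 cartilage chains were lower, and of the other members 1 was higher (Col22a1) and 6 were lower. The 8 calls depend on the healthy samples: without healthy library 2, where 1 healthy sample remains and is assumed to vary like the other groups, 4 members were called (Col2a1, Col9a1, Col13a1 and Col24a1). A fit on recovered and healthy samples alone, in which the pre-leukemic zeros do not enter the spread, called 3 (Col1a2, Col9a1 and Col20a1). With a pseudocount of 0.1 the count was 5, of which 2 were cartilage chains. Col9a1, Col13a1 and Col24a1 entered the list through the healthy libraries alone, so their difference follows from the rule. The other 5 called members (Col2a1, Col9a2, Col11a1, Col11a2 and Col20a1) also needed healthy libraries to enter it. Outside the healthy group, each reached 1 FPKM in only 1 or 2 libraries. The counts and medians of this comparison are therefore not free of the choice of members.

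Of the chondrocyte markers that are not collagens, 3 of 9 (Matn1, Matn3 and Ucma) were at 0 in every recovered library, 6 in every pre-leukemic library and 1 (Matn1) in every healthy library. Their summed level ran from 620.5 to 1003 FPKM in recovered, 1.75 to 6.73 FPKM in pre-leukemic and 3184 to 3189 FPKM in healthy libraries. Sox9, the transcription factor of early cartilage cells, was at 36.6 to 66.6 FPKM in recovered, 0 to 0.395 FPKM in pre-leukemic and 37.1 to 46.9 FPKM in healthy libraries, so recovered and healthy libraries overlapped there. Chad, a cartilage matrix protein, averaged 400.1 ± 127 FPKM in recovered, 1.40 ± 1.87 FPKM in pre-leukemic and 2446 ± 17.9 FPKM in healthy samples (recovered against healthy, adjusted p = 0.0529). Ucma, made by growth plate cartilage cells, averaged 29.2 ± 19.4 FPKM in healthy samples and was at 0 in every recovered and pre-leukemic library. It met the rule of 1 FPKM in 3 libraries, which also chose the genes tested, through the healthy libraries alone. Its call as lower in recovered than in healthy samples (limma, adjusted p = 6.94e-05) thus follows from that rule. The 10 osteoblast markers summed to 775 to 1514 FPKM in recovered, 45.3 to 114 FPKM in pre-leukemic and 3955 to 5093 FPKM in healthy libraries, and 0 of 10 passed in recovered against healthy samples, with 7 lower at an unadjusted p under 0.05. Runx2, the transcription factor of early osteoblasts, went another way than the sum, with 4.18 ± 0.898 FPKM in recovered, 26.7 ± 14.4 FPKM in pre-leukemic and 23.6 ± 13.7 FPKM in healthy samples (SD; n = 4, 6 and 2). It was lower in recovered against pre-leukemic samples (-2.28 ± 0.44, adjusted p = 0.000885, up to 0.121 over the alternatives). Ibsp, a bone matrix protein, was at 182 to 405 FPKM in recovered, 0 to 6.94 FPKM in pre-leukemic and 1347 to 1433 FPKM in healthy libraries. The part of these cell types in the collagen levels was not tested.

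Basement membrane chains were low in pre-leukemic libraries, and recovered libraries overlapped the healthy range for all 4 of them. Col4a1 had 84.5, 78.1, 87.1 and 49.0 FPKM in recovered libraries, 0.916 to 4.20 FPKM with a median of 1.96 in pre-leukemic libraries, and 61.0, 72.5 and 60.3 FPKM in healthy libraries. It fell in pre-leukemic against healthy samples (-4.40 ± 0.48, adjusted p = 1.43e-05) and rose in recovered against pre-leukemic samples (4.53 ± 0.38, adjusted p = 5.61e-07). Recovered and healthy libraries overlapped, and their difference of 0.13 ± 0.51 (adjusted p = 0.961) turned to -0.15 with quantile normalization and -0.07 under the TPM and immunoglobulin-free scalings. Col4a2, which pairs with Col4a1 in a trimer of the same network, had 42.1, 48.0, 56.2 and 47.6 FPKM in recovered libraries, 0.794 to 7.37 FPKM with a median of 4.70 in pre-leukemic libraries, and 53.3, 58.7 and 53.4 FPKM in healthy libraries. Col15a1 and Col18a1, whose C-terminal fragments are known as restin and endostatin, were at 22.0 to 39.0 and 5.85 to 21.2 FPKM in recovered, 0.411 to 2.92 and 0.0378 to 1.43 FPKM in pre-leukemic, and 13.2 to 27.7 and 7.96 to 9.99 FPKM in healthy libraries. All 4 fell in pre-leukemic against healthy samples and rose in recovered against pre-leukemic samples, and 0 passed in recovered against healthy samples, also not at an unadjusted p under 0.05 (limma, 0 of 4). Endothelial cells also make these chains. The 12 endothelial markers summed to 5.93 to 173 FPKM in recovered, 15.0 to 53.8 FPKM in pre-leukemic and 13.6 to 31.3 FPKM in healthy libraries, with Tie1 and Cldn5 at 0 in all recovered libraries, and their part in the result was not tested. The median of that sum was 16.8 FPKM in recovered, 23.2 FPKM in pre-leukemic and 23.9 FPKM in healthy libraries. Pre-leukemic and healthy libraries overlapped in the sum, which hides single genes. Emcn averaged 35.1 ± 70.1 FPKM in recovered samples (SD, n = 4), an SD above the mean, so its level was very uneven among them. Of 9 endothelial markers tested, Plvap was lower in pre-leukemic against healthy samples and 8 passed in neither direction. In recovered against pre-leukemic samples Plvap was higher, Tek and Pecam1 were lower and 6 passed in neither direction, and 0 passed in recovered against healthy samples. The 1 of 9 lower in pre-leukemic against healthy samples is near the all-gene share of 13.1%. Likewise, the 1 higher and 2 lower in recovered against pre-leukemic samples are near the all-gene shares of 14.8% and 25.1%.

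Among fibril-associated chains without a cartilage label, Col12a1 and Col16a1 had the highest levels in healthy libraries and fell in pre-leukemic against healthy samples. Col12a1, abundant in periosteum and tendon, had 296, 345, 589 and 438 FPKM in recovered libraries, 0 to 9.98 FPKM with a median of 0.234 in pre-leukemic libraries, and 904, 1028 and 893 FPKM in healthy libraries. Its pre-leukemic mean was 0.204% of the healthy mean, and that mean of 1.97 FPKM is 0.364 FPKM without pre-leukemic library 4. Pre-leukemic minus healthy was -9.03 ± 0.75 (adjusted p = 1.55e-06), recovered minus pre-leukemic 7.78 ± 0.59 (adjusted p = 2.52e-07) and recovered minus healthy -1.25 ± 0.79 (adjusted p = 0.479). Col16a1, a minor chain bound to fibrils and to integrins, had 89.2, 192, 306 and 214 FPKM in recovered libraries, 1.14 to 5.20 FPKM with a median of 3.74 in pre-leukemic libraries, and 325, 504 and 303 FPKM in healthy libraries. Pre-leukemic minus healthy was -6.57 ± 0.53 (adjusted p = 1.27e-06) and recovered minus pre-leukemic 5.45 ± 0.42 (adjusted p = 2.96e-07).

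Col14a1, a close relative of Col12a1 in structure with the same longest helix run of 32 triplets, behaved otherwise in pre-leukemic libraries. It stood at 51.3, 19.8, 14.0 and 51.8 FPKM in recovered libraries, at 3.31 to 16.3 FPKM with a median of 11.8 in pre-leukemic libraries, and at 18, 28.9 and 20.6 FPKM in healthy libraries. The pre-leukemic mean was 45.6% of the healthy mean, and the difference did not pass (-1.21 ± 0.65, adjusted p = 0.186) except on the TPM scale (adjusted p = 0.00658). It rose in recovered against pre-leukemic samples (1.51 ± 0.51, adjusted p = 0.0302, up to 0.0892 over the alternatives), a call lost in 6 of them, including those without recovered library 1 or 4 and without pre-leukemic library 2, 3 or 5. Col22a1, a chain of tissue junctions, was the member whose recovered mean lay farthest above the healthy mean, at 439% of it. It had 16.8, 48.4, 46.0 and 45.9 FPKM in recovered libraries, 0 in all 6 pre-leukemic libraries, and 17.7, 2.10 and 14.0 FPKM in healthy libraries. Recovered minus healthy was 2.37 ± 0.66, with an adjusted p of 0.0822, and 0.0270 without recovered library 1. The healthy mean is 15.8 and not 8.96 FPKM without healthy library 2. Col20a1 was at 0 in all recovered libraries, at 0.05 to 2.06 FPKM in pre-leukemic libraries and at 1.82, 3.69 and 6.73 FPKM in healthy libraries, so its highest pre-leukemic value overlapped the healthy range. It was called lower in recovered than in healthy samples (adjusted p = 0.0234), and the p was 0.121 without healthy library 2, 0.0663 without healthy library 3 and 0.0519 with the replicate number as a block. These last genes were singled out after their values had been seen.

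**Figure D2:**
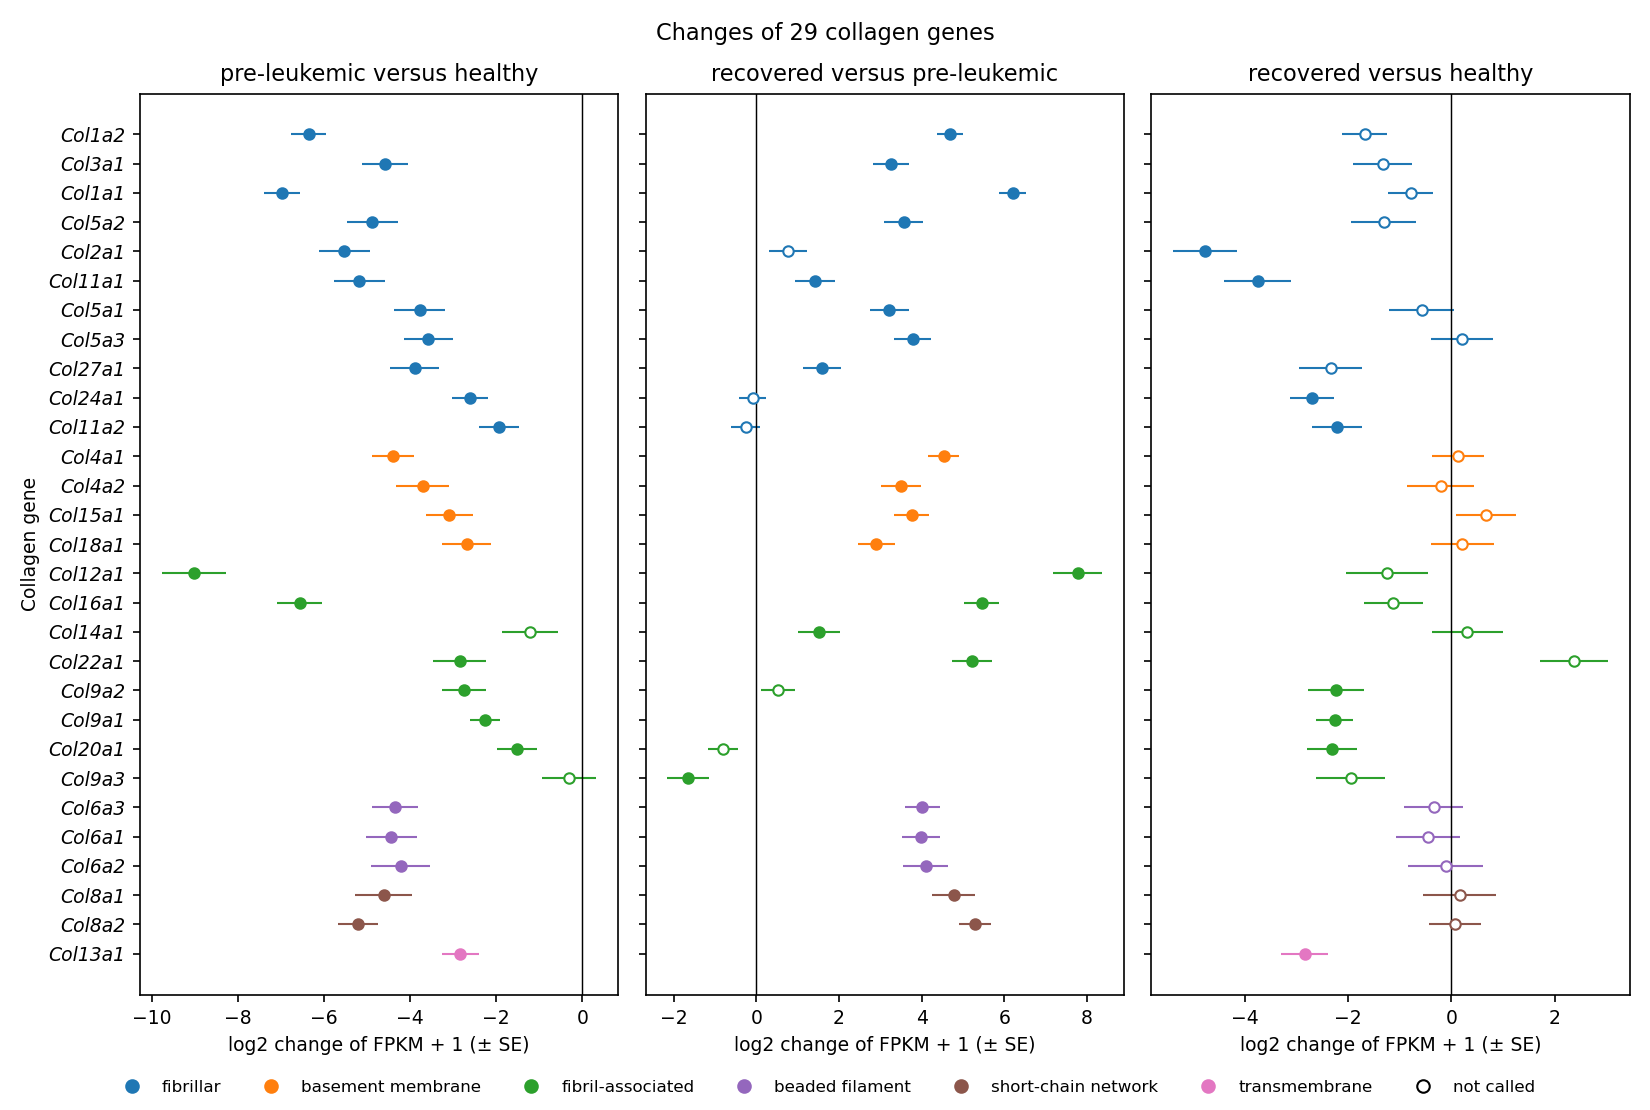
Fitted log2 change of FPKM + 1 with its standard error for the 29 members in each comparison, grouped by class; filled points passed an adjusted p of 0.05, and Col9a1 and Col13a1 have no point in the middle panel because both groups are at 0. A change against a group at 0 depends on the pseudocount. Nearly all points lie left of 0 in the first panel and right of it in the second, and in the third the called points are Col2a1, Col11a1, Col24a1, Col11a2, Col9a2, Col9a1, Col20a1 and Col13a1.

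The beaded-filament chains of type VI collagen, which joins cells to the surrounding matrix, moved together. Col6a1 had 181, 98.9, 223 and 167 FPKM in recovered libraries, 1.90 to 15.8 FPKM with a median of 12.3 in pre-leukemic libraries, and 241, 202 and 238 FPKM in healthy libraries. Col6a2 had 123, 125, 142 and 189.8 FPKM in recovered libraries, 1.40 to 25.2 FPKM with a median of 9.47 in pre-leukemic libraries, and 146, 165 and 143 FPKM in healthy libraries. Col6a3, the long chain, had 208, 129.5, 232 and 345 FPKM in recovered libraries, 5.32 to 29.7 FPKM with a median of 13.5 in pre-leukemic libraries, and 239.5, 308 and 246 FPKM in healthy libraries. All 3 pre-leukemic ranges lay apart from and under both other groups, whereas recovered and healthy libraries overlapped for Col6a2 and Col6a3 and also for Col6a1. The changes were -4.44 ± 0.59, -4.22 ± 0.69 and -4.36 ± 0.54 for Col6a1, Col6a2 and Col6a3 in pre-leukemic against healthy samples (adjusted p at most 0.000419). In recovered against pre-leukemic samples they were 3.99 ± 0.46, 4.10 ± 0.55 and 4.02 ± 0.43 (adjusted p at most 4.04e-05). Recovered minus healthy lay between -0.45 and -0.11, and 0 of 3 passed with or without adjustment.

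Short-chain network collagens of type VIII, known from blood vessel walls and the cornea, were at or near 0 in pre-leukemic libraries. Col8a2 had 28.1, 26.9, 42.7 and 64.5 FPKM in recovered libraries, 0 in all 6 pre-leukemic libraries, and 40.4, 32.8 and 39.8 FPKM in healthy libraries. Against that, 3 fragments on the annotated transcript would read as 0.114 to 0.167 FPKM in pre-leukemic libraries. Col8a1 had 69.9, 32.6, 45.4 and 107 FPKM in recovered libraries, 0 to 4.29 FPKM with a median of 1.56 in pre-leukemic libraries, with 0 in libraries 2 and 3, and 47.3, 54.7 and 50.6 FPKM in healthy libraries. Its pre-leukemic mean is 0.983 and not 1.53 FPKM without library 4. Both fell in pre-leukemic against healthy samples (adjusted p = 3.27e-06 for Col8a2 and 0.000145 for Col8a1) and rose in recovered against pre-leukemic samples (1.40e-07 and 6.83e-06). Their recovered minus healthy differences of 0.07 ± 0.50 and 0.16 ± 0.70 did not pass and turned negative under 3 other scalings. The transmembrane chain Col13a1, known from muscle junctions, was at 0 in all recovered and pre-leukemic libraries and at 2.11, 13.2 and 3.14 FPKM in healthy libraries, with a healthy mean of 2.62 and not 7.91 FPKM without library 2.

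The remaining 15 collagen symbols did not meet the rule: Col4a3, Col4a4, Col4a5, Col4a6, Col6a4, Col6a5, Col6a6, Col7a1, Col10a1, Col17a1, Col19a1, Col23a1, Col25a1, Col26a1 and Col28a1. Those just outside it reached 1 FPKM in 2 libraries. Col4a5 had its values over 1 FPKM, 1.87 and 2.99, in recovered library 4 and pre-leukemic library 5, Col23a1 had 2.05 and 2.28 FPKM in pre-leukemic libraries 4 and 5, and Col26a1 had 1.31 and 1.88 FPKM in recovered library 3 and pre-leukemic library 6. Those just inside, Col9a1, Col13a1 and Col24a1, had their 3 qualifying libraries in the healthy group. At the other end, 9 members reached 1 FPKM in every library (Col1a1, Col1a2, Col3a1, Col5a2, Col6a1, Col6a2, Col6a3, Col14a1 and Col16a1).

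Across the members, pre-leukemic against healthy samples gave 0 higher, 27 lower and 2 that passed in neither direction (Col14a1 and Col9a3), with a median change of -3.90. Over all genes 14.2% were called higher and 13.1% lower, with a median of 0.20, and at an unadjusted p under 0.05 again 0 members were higher and 27 lower. Col9a1, Col13a1 and Col24a1 entered the list through the healthy libraries alone, so their calls here follow from the rule. Col2a1, Col8a2, Col9a2, Col11a1 and Col22a1, at 0 in all pre-leukemic libraries, entered it through the other groups. Their changes against pre-leukemic samples are thus partly set by the choice of members. Among the 9 members that reached 1 FPKM in every library, 8 were lower, with a median of -4.59. The 27 became 25 without healthy library 2, which ended the calls of Col11a2 and Col20a1. Recovered against pre-leukemic samples gave 21 higher, 1 lower (Col9a3) and 7 in neither direction, with a median of 3.50, beside 14.8% higher and 25.1% lower over all genes and a median of -0.41. The 7 were Col2a1, Col9a1, Col9a2, Col11a2, Col13a1, Col20a1 and Col24a1, of which 4 are cartilage chains. All 9 members that reached 1 FPKM in every library were higher, with a median of 4.02. By class, 8 of 11 fibrillar, 4 of 4 basement membrane, 4 of 8 fibril-associated, 3 of 3 beaded-filament and 2 of 2 short-chain members were higher. In recovered against healthy samples, 4 of 11 fibrillar, 3 of 8 fibril-associated, 1 of 1 transmembrane and 0 of the 9 basement membrane, beaded-filament and short-chain members were lower. Over all genes 1.99% were lower there, and all 8 of these members needed healthy libraries to enter the list. Of the 8 fibrillar members that are not cartilage chains, 1 was lower, namely Col24a1, which entered it through the healthy libraries alone. These comparisons share groups of samples, so their counts are not separate evidence. On the TPM scale, where every library is rescaled to the same sum, the median of all genes shifted by -1.28 in pre-leukemic against healthy and by 0.99 in recovered against pre-leukemic samples. The all-gene calls there were 791 higher and 4200 lower in pre-leukemic against healthy samples, instead of 1858 and 1725. In recovered against pre-leukemic samples they were 3768 higher and 1213 lower on the TPM scale and 2460 and 2424 with quantile normalization, instead of 1945 and 3299. In recovered against healthy samples the all-gene calls were 66 higher and 145 lower with quantile normalization and 48 and 401 on the TPM scale, instead of 68 and 261. The members' medians on the TPM scale were -5.05 and 4.70 in these comparisons, with 28 lower and 21 higher.

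The make-up of the collagen pool was described as well as its size, and no share was tested. Collagens held 0.484 ± 0.0919% of the summed FPKM in recovered samples (SD, n = 4), 0.00939 ± 0.00554% in pre-leukemic (n = 6) and 1.12 ± 0.111% in healthy samples (n = 2), and the pre-leukemic share is 0.0317 ± 0.0144% when immunoglobulin genes are left out of the sum. Fibrillar chains made up 56.2 ± 6.07% of the collagen FPKM in recovered, 63.7 ± 5.35% in pre-leukemic and 66.3 ± 0.132% in healthy samples. For these chains the healthy libraries (66.2 to 66.6%) lay within the pre-leukemic range (58.2 to 70.2%). Basement membrane chains held 3.73 to 5.51% in recovered, 3.40 to 6.51% in pre-leukemic and 2.18 to 2.23% in healthy libraries, so that healthy libraries were lowest and the other groups overlapped, with no test made. Fibril-associated chains held 14.1 to 27.4% in recovered, 7.23 to 17.3% in pre-leukemic and 19.8 to 21.2% in healthy libraries. Beaded-filament chains held 12.6 to 17.1% in recovered, 15.1 to 22.8% in pre-leukemic and 9.02 to 9.97% in healthy libraries. The cartilage chains held 0.0157 to 0.203% in recovered, 0.841 to 5.07% in pre-leukemic and 1.10 to 1.76% in healthy libraries, where Col9a3 and Col11a2 were the 2 cartilage chains detected in pre-leukemic libraries. Shares within a library sum to a whole, so that 1 class cannot change alone.

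**Figure D3:**
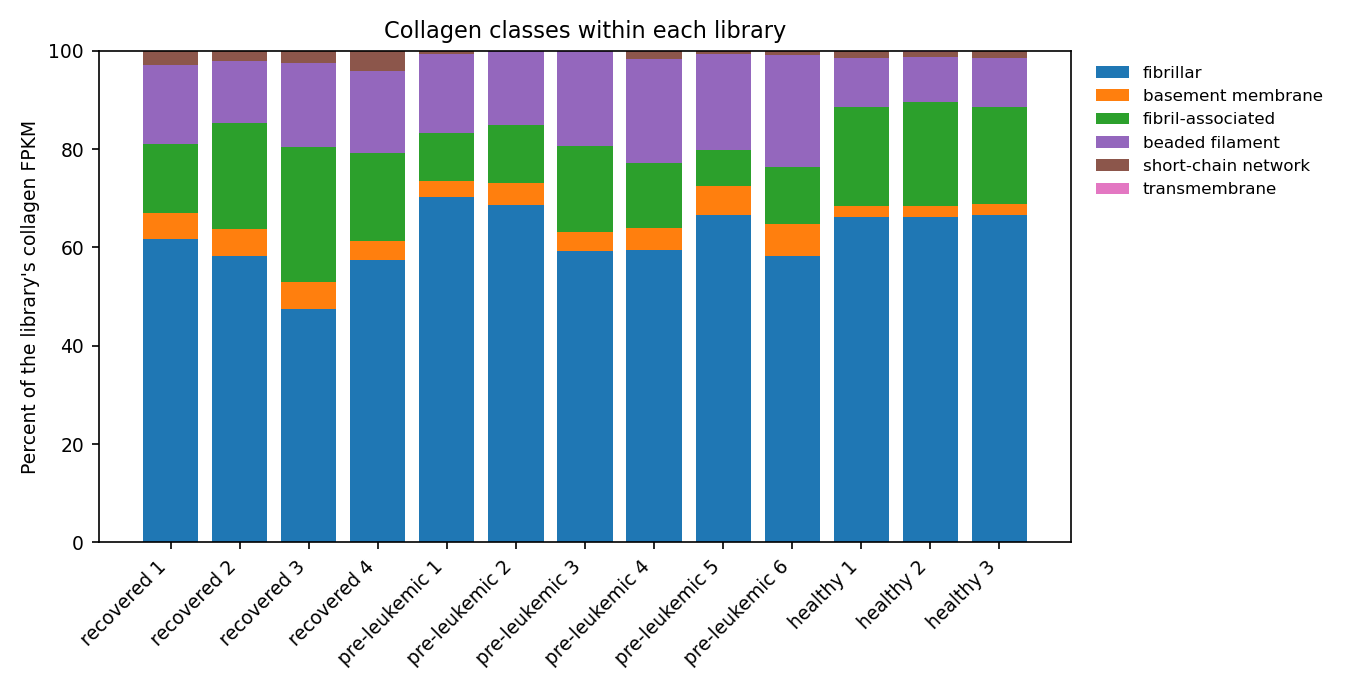
Share of each collagen class in the summed collagen FPKM of each library (percent, stacked), with recovered, pre-leukemic and healthy libraries from left to right. Fibrillar chains hold the majority of every bar except that of recovered library 3 (47.5%), and the basement membrane and beaded-filament parts are thinner in the healthy libraries than in the others.

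The printed ratios between chains of a library do not depend on how that library was scaled. The pairs are partner chains of a collagen, except Col3a1 and Col1a1, which belong to type III and type I collagen. The tests, however, used the difference of the chains' log2(FPKM + 1) values, which does depend on the scaling, most at low levels. The ratio of Col1a1 to Col1a2 was 0.983, 1.12, 1.64 and 1.41 in recovered libraries, 0.332 to 0.503 with a median of 0.395 in pre-leukemic libraries, and 0.717, 0.640 and 0.744 in healthy libraries. The 3 groups did not overlap, with recovered libraries highest and pre-leukemic libraries lowest. Recovered against pre-leukemic samples gave a two-sided exact permutation p of 0.00952, the smallest that 4 against 6 samples allow, and 0.0571 after adjustment over 12 tests of 4 ratios. Pre-leukemic against healthy samples gave an exact permutation p of 0.0714 and recovered against healthy samples one of 0.133, each the smallest possible, so that neither design can reach 0.05. The ratio of Col3a1 to Col1a1 was 1.44, 1.10, 0.601 and 0.912 in recovered libraries, 5.01 to 10.8 with a median of 8.83 in pre-leukemic libraries, and 1.3, 1.54 and 1.26 in healthy libraries. All pre-leukemic libraries lay above all others, with the same exact permutation p of 0.00952 (adjusted 0.0571) against recovered samples, while recovered and healthy libraries overlapped. Col3a1 accordingly held 28 to 45.6% of the collagen FPKM in pre-leukemic libraries and Col1a1 3.29 to 5.59%.

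By contrast, the ratios within type VI collagen showed no such separation. Col6a1 to Col6a2 was 1.18 ± 0.399 in recovered (SD, n = 4), 1.74 ± 1.79 in pre-leukemic (n = 6) and 1.44 ± 0.306 in healthy samples (n = 2), and Col6a3 to Col6a1 was 1.39 ± 0.464, 1.55 ± 0.861 and 1.27 ± 0.362 in the same order. The exact permutation p of these 6 tests lay between 0.533 and 1. The spread in pre-leukemic libraries was wide, with Col6a1 to Col6a2 reaching 5.32 in library 3 and 0.625 in library 2. Col4a1 to Col4a2, left untested because some values are under 1 FPKM, was 2.01, 1.63, 1.55 and 1.03 in recovered libraries, 0.326 to 2.17 in pre-leukemic libraries, and 1.15, 1.23 and 1.13 in healthy libraries.

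**Figure D4:**
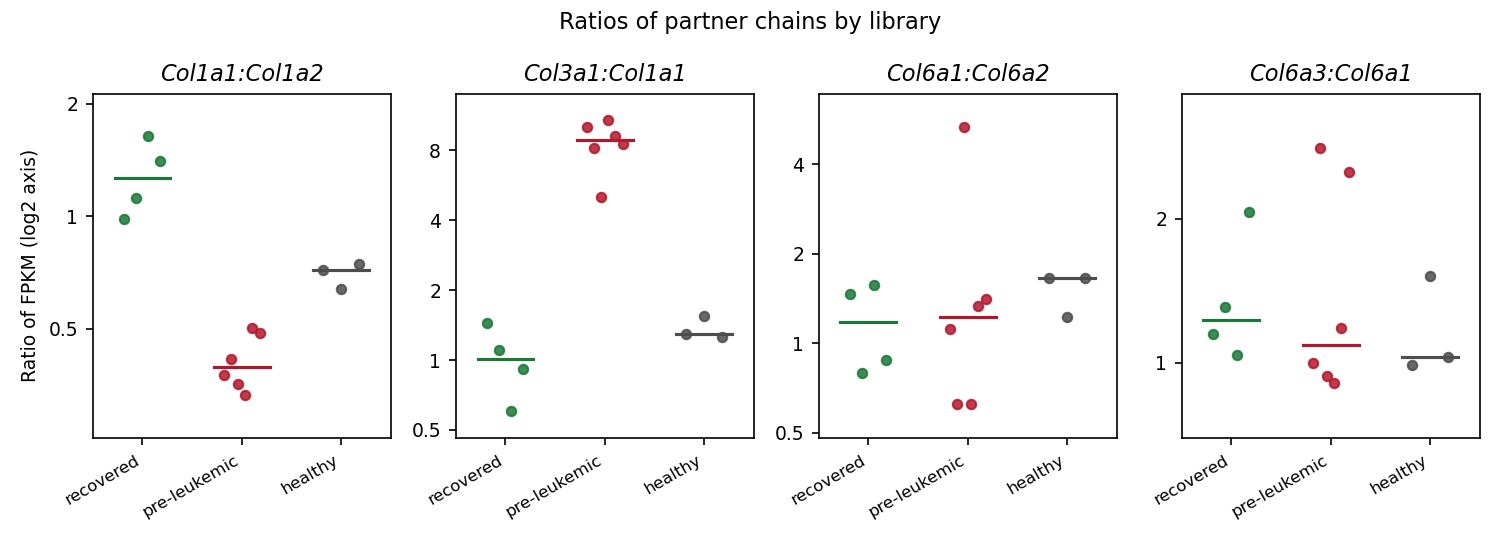
Ratio of the FPKM of 2 collagen chains in each library on a log2 axis, where Col3a1 and Col1a1 are chains of different collagens and the other pairs are partners; points are recovered, pre-leukemic and healthy libraries and lines are medians over libraries. The groups separate for Col1a1 to Col1a2, pre-leukemic libraries stand above the others for Col3a1 to Col1a1, and the type VI ratios overlap.

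Healthy library 2 had the highest healthy value for 23 of 29 members, pre-leukemic library 4 the highest pre-leukemic value for 10, pre-leukemic libraries 2 and 3 the lowest for 11 and 10, and recovered library 4 the highest recovered value for 12.

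The genes that build and handle collagen were followed with the chains, from lists of general knowledge, and their means are given with the SD over 4 recovered, 6 pre-leukemic and 2 healthy samples. Of 15 tested genes that hydroxylate or glycosylate prolines and lysines of the chains, 0 were higher, 12 lower and 3 in neither direction in pre-leukemic against healthy samples, 12 higher and 0 lower in recovered against pre-leukemic samples, and 1 higher and 0 lower in recovered against healthy samples. Plod2, which hydroxylates lysines of the telopeptides, averaged 63.2 ± 26.8 FPKM in recovered, 1.32 ± 1.26 FPKM in pre-leukemic and 55.5 ± 19.3 FPKM in healthy samples. P4hb, a subunit of prolyl 4-hydroxylase and a general folding enzyme, averaged 1582 ± 397 FPKM in recovered, 231 ± 23.8 FPKM in pre-leukemic and 788 ± 9.16 FPKM in healthy samples. P4hb was the 1 gene called higher in recovered against healthy samples (0.97 ± 0.24, adjusted p = 0.0468, up to 0.394 over the alternatives).

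Of 11 tested genes of procollagen folding and export, 5 were lower and 0 higher in pre-leukemic against healthy samples, 5 higher and 1 lower (Sec13, a coat protein of export vesicles) in recovered against pre-leukemic samples, and 0 passed in recovered against healthy samples, where 2 were higher and 2 lower at an unadjusted p under 0.05. Sec13 averaged 32.9 ± 24.9 FPKM in recovered and 109.8 ± 31.7 FPKM in pre-leukemic samples, a change of -1.90 ± 0.38 (adjusted p = 0.00126, up to 0.431 over the alternatives). Serpinh1, the collagen chaperone, averaged 628 ± 119 FPKM in recovered, 15.3 ± 7.77 FPKM in pre-leukemic and 258 ± 37.6 FPKM in healthy samples, and its recovered minus healthy change of 1.27 ± 0.51 did not pass (adjusted p = 0.225). Fkbp10, another folding factor of the endoplasmic reticulum, averaged 34.3 ± 9.58 FPKM in recovered, 0.582 ± 0.975 FPKM in pre-leukemic and 31.4 ± 5.57 FPKM in healthy samples.

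Of 12 tested genes of propeptide cleavage and fibril assembly, 11 were lower in pre-leukemic against healthy samples, 10 were higher in recovered against pre-leukemic samples, and 0 passed in recovered against healthy samples, where 1 was higher and 1 lower at an unadjusted p under 0.05. Lox, which cross-links collagen, averaged 91.8 ± 22.7 FPKM in recovered, 1.14 ± 1.12 FPKM in pre-leukemic and 151 ± 17.2 FPKM in healthy samples. Sparc, a collagen-binding matrix protein, averaged 3557 ± 802 FPKM in recovered, 68.8 ± 43.0 FPKM in pre-leukemic and 4554 ± 731 FPKM in healthy samples. Fn1, the fibronectin on which fibrils assemble, averaged 1607 ± 469 FPKM in recovered, 34.2 ± 19.8 FPKM in pre-leukemic and 1118 ± 51.6 FPKM in healthy samples.

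Collagen receptors were mixed. The counts of this and the other gene lists stand beside all-gene shares of 14.2% higher and 13.1% lower in pre-leukemic against healthy samples and 14.8% and 25.1% in recovered against pre-leukemic samples. Of 9 tested, 1 was higher and 5 lower in pre-leukemic against healthy samples, 4 higher and 2 lower in recovered against pre-leukemic samples, and 0 higher and 1 lower in recovered against healthy samples, where the all-gene shares are 0.518% and 1.99%. The 2 lower of 9 in recovered against pre-leukemic samples are near the all-gene share. Ddr2, a tyrosine kinase that binds fibrillar collagen, averaged 27.9 ± 12.8 FPKM in recovered, 2.65 ± 1.43 FPKM in pre-leukemic and 38.0 ± 8.36 FPKM in healthy samples. Lair1, an inhibitory collagen receptor of leukocytes, was the gene that was higher in pre-leukemic against healthy samples (adjusted p = 0.00102), with 0.390 ± 0.780 FPKM in recovered, 41.4 ± 44.1 FPKM in pre-leukemic and 0 in healthy samples. It could not have been among the genes tested without the pre-leukemic libraries, so its call follows from the filter. Itga1, the integrin alpha 1 chain, was the one lower in recovered against healthy samples (-2.03 ± 0.42, adjusted p = 0.0205, up to 0.162 over the alternatives). It averaged 0.195 ± 0.391 FPKM in recovered and 0.147 ± 0.166 FPKM in pre-leukemic samples. It was therefore tested through the healthy libraries alone, and its call follows from the filter.

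Collagen-degrading enzymes split in 2 directions. Of 7 tested, 3 were higher (Mmp8, Mmp9 and Pepd) and 4 lower (Mmp2, Mmp13, Mmp14 and Ctsk) in pre-leukemic against healthy samples, each went the opposite way in recovered against pre-leukemic samples, and 0 of 7 passed in recovered against healthy samples, with or without adjustment. Mmp13, the collagenase of bone and cartilage cells, averaged 470 ± 150.2 FPKM in recovered, 1.32 ± 2.02 FPKM in pre-leukemic and 742 ± 116 FPKM in healthy samples. Mmp14, the membrane-bound collagenase, averaged 551 ± 195 FPKM in recovered, 4.77 ± 2.72 FPKM in pre-leukemic and 323 ± 126 FPKM in healthy samples. Mmp8 was at 0 in every recovered and healthy library and was tested through the pre-leukemic libraries alone, so its calls follow from the filter. Mmp8 and Mmp9 are known from neutrophils and other leukocytes, whose markers are given above, and their part in these values was not tested.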

How the data were processed

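Polyadenylated RNA of sorted mouse MSCs was sequenced in 13 libraries made with a Nextera XT kit, per the labels' protocols. The authors deposited FPKM values, and the tools listed in the submitters' processing notes are Cuffnorm, Cufflinks 2.2.1, TopHat and bcl2fastq, on mm10. Neither the gene annotation nor Cuffnorm's library-size method is stated in the labels. That method can shift a library that is dominated by a few genes.

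Values were taken as log2(FPKM + 1). The 13118 genes that reached 1 FPKM in 3 or more libraries were tested with limma 3.58.1 in R 4.3.3, with 12 samples, 3 groups, 9 residual degrees of freedom and Benjamini-Hochberg adjustment over all genes, threshold 0.05. The procedure was tested on simulated data. Chain ratios were compared by exact permutation tests on the difference of log2(FPKM + 1) between the chains (scipy 1.17.1). Coordinates and reading frames are from GENCODE M21 on GRCm38, and promoters from RefSeq GRCm38.p6. Fragment numbers are estimated from the spacing of low values in 5240 genes of a single transcript, since no counts were used, and cover counting error only. Means of healthy samples are over healthy library 2 and the mean of libraries 1 and 3 (n = 2). An FPKM of 0 can be a failed estimate and is given as listed.

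Members and lists were chosen with earlier results of these data known. Values of each recovered and healthy library, with the lowest, median and highest of the 6 pre-leukemic libraries, are printed for the 2 most abundant members of each class, the cartilage chains, the partner chains and the 3 largest falls in recovered against healthy samples, with up to 4 genes of each list by smallest p. Other members given by library were chosen after their values were seen. Alternatives were other scalings, pseudocounts, filters, sample sets, a replicate block and leaving out each library.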

Additional observations from a re-analysis of the deposited data

Results flagged for a closer look

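In groups of 4 and 6 libraries, 8 of 70 sets of values held a library far from its others by Dixon's test. Chance gives about 5% for normally distributed values. That share does not hold for sets of zeros with 1 other value, such as Col9a2 and Col11a2 in recovered and Col24a1 in pre-leukemic libraries. Recovered library 1 had 0.791 FPKM of Col11a2 where the other 3 had 0, and pre-leukemic library 1 had 1.92 FPKM of Col11a2 where the next was at 0.337 FPKM. Pre-leukemic library 2 had 0.463 FPKM of Col24a1 and the other 5 had 0. Recovered library 3 had 3.23 FPKM of Col9a2 and the others 0. Pre-leukemic library 4 had 9.98 FPKM of Col12a1, the next being 1.35 FPKM. Recovered library 1 had 16.8 FPKM of Col22a1, under the 45.9 to 48.4 FPKM of the others. In recovered library 4, basement membrane chains held 3.73% of the collagen FPKM, under the 5.33 to 5.51% of the others. Pre-leukemic library 3 had the lowest ratio of Col3a1 to Col1a1, 5.01, where the next was 8.14.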

How the results depend on the processing

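The 22 alternatives left the count of members called within 1.5 times in pre-leukemic against healthy and recovered against pre-leukemic samples. In recovered against healthy samples the count of 8 became 5 with a pseudocount of 0.1, 2 with a minimum mean of 5 FPKM (22 members tested) and 3 with only the groups compared. Leaving out 1 library gave 4 to 9, the 4 being without healthy library 2 and the 9 without recovered library 1, of which 1 was higher. Over all genes in recovered against healthy samples, 68 higher and 261 lower became 231 and 536 with 13 separate libraries, 9 and 94 with only the groups compared, 46 and 76 with a mean of at least 5 FPKM, 7 and 75 without healthy library 2 and 182 and 500 without recovered library 1. In pre-leukemic against healthy samples, 1858 and 1725 became 785 and 931 without healthy library 2. With the replicate block the counts were 26, 21 and 8, where the last 8 hold Col1a2 and Col27a1 in place of Col9a2 and Col20a1, and same-numbered libraries did not deviate together (correlations of -0.0194 to 0.0337 over 10 pairs, with 2 of 13 libraries closest to their own number). Of the gene tests under alternatives, 1770 were the same, 47 weaker, 14 stronger and 20 reversed in sign, and the causes were not tested. The reversed ones were small changes that had not passed. In recovered against healthy samples, quantile normalization, the TPM scale and scaling without immunoglobulin genes gave -0.15, -0.07 and -0.07 for Col4a1, -0.06, -0.04 and -0.04 for Col8a1, and -0.12, -0.13 and -0.13 for Col8a2. The replicate block gave -0.04 for Col5a3, -0.21 for Col8a1 and -0.10 for Col8a2 there. Quantile normalization gave 0.02 for Col24a1 in recovered against pre-leukemic samples, and 13 separate libraries gave 0.00 for Col9a3 in pre-leukemic against healthy samples. Leaving out 1 library gave -0.11 to 0.46 for Col18a1, -0.14 to 0.43 for Col8a1 and -0.18 to 0.23 for Col8a2 in recovered against healthy samples, the lowest each without recovered library 4, and -0.49 to 0.58 for Col9a3 in pre-leukemic against healthy samples. Depth limits the levels listed at 0, and 2 healthy samples limit every comparison with them.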
